A study of Homo sapiens with 6 samples.

Results

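The 46 genes described here act in homologous recombination, in the Fanconi pathway that unhooks DNA crosslinks, and in the checkpoint that both pathways feed. They were chosen by symbol from a list with 11 roles, and all 46 were found among 63241 gene identifiers and passed the filter on low counts. Total RNA was sequenced from MDA-MB-231 cells, an established human triple-negative breast cancer line, 24 h after addition of nitidine chloride (NCD, a plant alkaloid) at 5 μM, or of 0.1% DMSO as the solvent control, with 3 libraries in each of the 2 groups. This is 1 line at 1 dose and 1 time, so nothing here speaks to other lines or doses. Nothing states whether the libraries of a group came from separate cultures, so p-values measure only the spread between these libraries, which may be technical.

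In homologous recombination, a broken DNA end is cut back to a single strand, which then invades the sister chromatid and copies the matching sequence. In the Fanconi pathway, a core complex with the ubiquitin ligase FANCL marks the FANCD2 and FANCI pair, which brings nucleases to a crosslink so that recombination can finish the repair. The kinases ATM and ATR sense breaks and bare single strands, and breast cancers are often classed by whether recombination works in them.

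The libraries held 18223594 to 21629653 counts each. Of the marker lists, VIM, CD44, CAV1 and AXL had at least 5039 counts in each library, while SPARC had 6 to 18, CDH1 1 to 4, ESR1 0 to 7 and PGR 0 to 3. ERBB2, listed with ESR1 and PGR, had 638 to 671 counts with DMSO and 1209 to 1421 with NCD (log2 fold change 0.71). The mesenchymal gene ZEB1 had 1072 to 1913 counts with DMSO and 143 to 301 with NCD. The leukocyte genes PTPRC, CD3E and ITGAM had at most 1 count in a library, and CD14 had 2 to 22. Of 6 tested luminal epithelial markers 5 rose (median log2 fold change 0.55), with a summed level over the list of 787 to 907 CPM with DMSO and 1002 to 1196 CPM with NCD that was mostly KRT8 and KRT18. Of 6 mesenchymal markers 5 fell, with sums of 5553 to 5794 CPM and 3580 to 3861 CPM, and the part of either list in the results was not tested. In bulk RNA, fewer cells with a transcript and less of it per cell cannot be told apart. DMSO replicate 2 and NCD replicate 3 stood apart from the other libraries of their groups, with higher values for long transcripts of low GC content, which includes many of these genes, so results are also given without them where they matter. Over all tested genes in the decile with the longest transcripts, the median of NCD replicate 3 lay 0.20 above the mean of the other 2 NCD libraries on the log2(CPM + 0.5) scale, and that of DMSO replicate 2 lay 0.20 above the mean of the other 2 DMSO libraries. In the decile with the lowest GC content these medians were 0.25 and 0.13.

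A gene was called differentially expressed at an adjusted p below 0.05 in edgeR's quasi-likelihood test and an absolute log2 fold change above 1, and changed at any fold at an adjusted p below 0.05 alone. Of the 46 genes, 13 were differentially expressed (28.3%), against 31.0% of the 15295 genes tested, so the share was close to the background. MDC1 and RAD54L were the 2 that rose (4.35%, against 13.5% of all tested genes), and 11 fell (23.9%, against 17.5%): ATR, WRN, ATM, BRIP1, FANCL, FANCC, POLQ, C1orf112, FANCI, BARD1 and MRE11. At any fold 36 changed (78.3%, against 69.3%), of which 14 rose (30.4%, against 35.3%) and 22 fell (47.8%, against 34.1%), and 10 did not pass the test. The NCD libraries lay above the DMSO libraries without overlap for 15 genes (32.6%, against 37.2%) and below them for 21 (45.7%, against 35.3%). The median log2 fold change was -0.26, against 0.04 over all tested genes. It was -0.46 without NCD replicate 3.

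**Figure D1:**
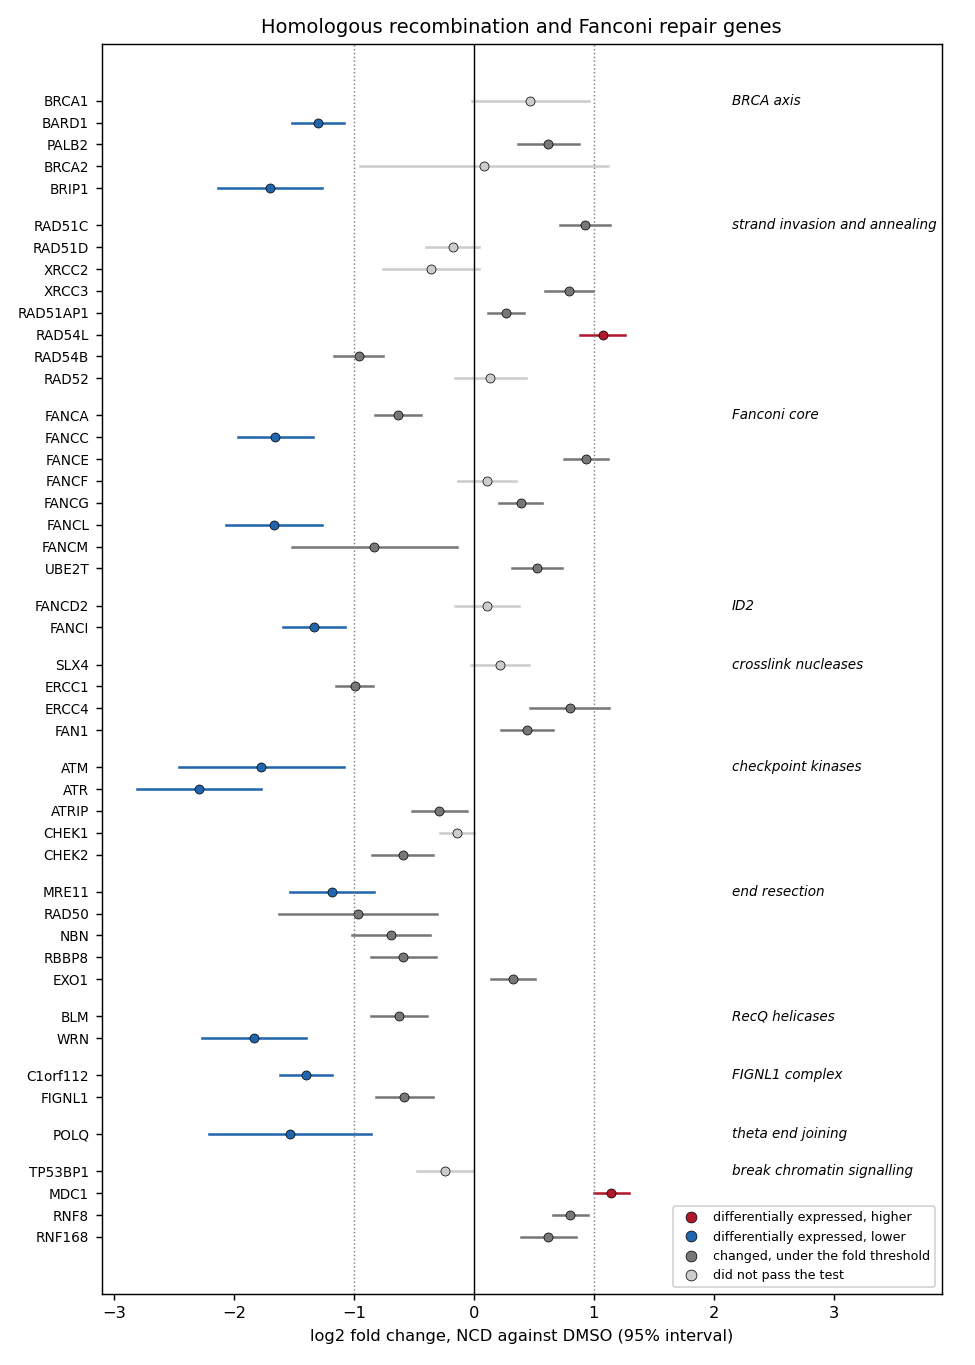
Log2 fold change of NCD against DMSO for each of the 46 genes, grouped by role, with its 95% interval from edgeR as a line; dotted lines mark the threshold of 1 on either side of 0. The deepest fall was that of ATR at -2.29 and the largest rise that of MDC1 at 1.15, and several role groups, the Fanconi core among them, hold genes on both sides of 0.

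Scaling bears on the split of rises and falls. Of all 4736 differentially expressed genes, 43.6% were higher, and 56.2% of 4974 were higher when libraries were scaled by their totals, a scaling that raised the log2 fold changes of all tested genes by a median of 0.20. Under that scaling 5 of the 46 genes were differentially expressed and higher, with RAD51C, FANCE and RNF8 added, and MRE11 was no longer called (-0.98). RAD51D and CHEK1, which did not pass the test, were then at 0.02 and 0.06 instead of -0.17 and -0.14. With ribosomal protein genes as the scaling reference the fold changes moved little, but 30 of the 46 genes changed at any fold instead of 36. The calls of RAD51AP1, FANCM, FAN1, ATRIP, RAD50 and EXO1 were lost there, and the same 13 genes stayed differentially expressed, with ERCC1 added.

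Of the 5 genes around BRCA1 and BRCA2, BARD1 and BRIP1 fell, PALB2 rose and BRCA1 and BRCA2 did not pass the test. BARD1, the ubiquitin ligase partner that BRCA1 needs for its stability (chr2:214725646-214809711, minus strand), had 33.4, 33.7 and 32.7 CPM with DMSO and 13.4, 12.1 and 15.1 CPM with NCD. Its groups were 2.46-fold apart without overlap, at a log2 fold change of -1.30 ± 0.095 (SE, adjusted p = 2.79e-06). BRCA1 itself had 29.1, 46.2 and 35.4 CPM with DMSO and 40.9, 44.6 and 68.2 CPM with NCD, and its groups overlapped, with NCD replicate 3 high and DMSO replicate 2 within the NCD range. Its log2 fold change of 0.47 ± 0.21 (SE, adjusted p = 0.0783) did not pass the test, with a 95% interval of -0.02 to 0.96. BRCA1 passed the test with all 6 libraries under DESeq2 (0.45, adjusted p = 0.0384), library totals (0.67, adjusted p = 0.0306) and no filter on low counts (0.47, adjusted p = 2.47e-05). It was at 0.19 without NCD replicate 3, and passed without DMSO replicate 2 (0.66, adjusted p = 0.0285) or NCD replicate 1 (0.59, adjusted p = 0.041). With both of the libraries that stood apart left out, a fit chosen after the data were seen, BRCA1 was at 0.39 (adjusted p = 0.00121). Dropping the filter on low counts moved adjusted p widely at like fold changes. FANCM, whose groups also overlap, went from 0.0345 to 2.6e-08 in edgeR's test, while ATRIP lost its call.

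BRIP1, a helicase that binds BRCA1 and unwinds structured DNA (chr17:61681266-61863521, minus strand), had 39.2, 55.6 and 47.1 CPM with DMSO and 11.6, 13.04 and 19.1 CPM with NCD. Every NCD library was below every DMSO library, by 3.25-fold on the fitted means, with a log2 fold change of -1.70 ± 0.19 (SE, adjusted p = 4.56e-05). PALB2, which bridges BRCA1 to BRCA2, went the other way, from 16.7, 19.1 and 16.01 CPM to 24.2, 25.6 and 30.1 CPM (log2 fold change 0.62 ± 0.11 SE, adjusted p = 0.000915), again without overlap. BRCA2 had 13.7, 30.6 and 22.5 CPM with DMSO and 12.1, 15.9 and 43.1 CPM with NCD, so the 2 libraries that stood apart held the highest value of each group and NCD replicate 3 exceeded all others. The fitted log2 fold change of 0.09 ± 0.45 (SE, adjusted p = 0.876) had a wide 95% interval, from -0.95 to 1.12, and without NCD replicate 3 it was -0.70 (adjusted p = 0.047). BRCA2 was shown because of this spread, after its values were seen.

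Among the genes of strand invasion and annealing, 4 of 8 rose, 1 fell and 3 did not pass the test. RAD54L, a DNA translocase that drives strand invasion (chr1:46247688-46278473, plus strand), had 13.9, 15.8 and 14.7 CPM with DMSO and 30.9, 30.6 and 32.1 CPM with NCD. The 3 NCD libraries were close to each other and all about 2.11-fold above the DMSO mean, at 1.08 ± 0.082 (SE, adjusted p = 3.68e-06). Its relative RAD54B, which has the same kind of motor, moved the opposite way, with 27.7, 29.1 and 30.5 CPM with DMSO and 14.9, 13.9 and 16.04 CPM with NCD and a log2 fold change of -0.96 ± 0.089 (SE, adjusted p = 1.26e-05). RAD51C, which acts early in strand invasion, rose from 20.1, 17.6 and 17.9 CPM to 35.6, 37.9 and 32.4 CPM (log2 fold change 0.93 ± 0.092 SE, adjusted p = 1.98e-05). Groups did not overlap for either of the last 2. XRCC3, which pairs with RAD51C, rose by 0.80 on the log2 scale, and RAD51AP1, a helper of strand invasion, by 0.27. The RAD51AP1 call was lost with ribosomal protein gene scaling (0.26, adjusted p = 0.21), which would leave 3 of the 8 genes called as higher. The partners RAD51D and XRCC2 (-0.17 and -0.36) and the annealing protein RAD52 (0.14) did not pass the test, although XRCC2 did without NCD replicate 3 (-0.57, adjusted p = 0.00669).

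The promoter stretches of RAD54L and BRIP1 are shown because these 2 genes moved in opposite directions while both carry a CCAAT box before the start. They are the 250 bases before the RefSeq start on GRCh38.p14 at chr1:46247438-46247687 (plus strand) and chr17:61863529-61863778 (minus strand), written 5′ to 3′ on the gene's strand. Capitals mark the CCAAT box (CCAAT, or ATTGG on the other strand) and the cell cycle homology region (TTTGAA or TTCGAA, here TTCAAA on the other strand), which recurs in genes of late cell cycle.
RAD54L: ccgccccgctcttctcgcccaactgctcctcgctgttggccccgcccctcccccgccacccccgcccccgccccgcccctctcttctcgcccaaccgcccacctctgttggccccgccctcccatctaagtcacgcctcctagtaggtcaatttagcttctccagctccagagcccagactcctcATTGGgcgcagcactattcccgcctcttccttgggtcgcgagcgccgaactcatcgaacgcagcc
BRIP1: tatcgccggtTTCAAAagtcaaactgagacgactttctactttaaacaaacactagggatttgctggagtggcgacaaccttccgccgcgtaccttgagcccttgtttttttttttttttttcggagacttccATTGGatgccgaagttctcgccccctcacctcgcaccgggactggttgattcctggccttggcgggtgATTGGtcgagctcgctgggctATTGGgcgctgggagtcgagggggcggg
RAD54L holds 1 CCAAT match, 61 bases before the start, and a further match that straddles the start is not shown. BRIP1 holds 3 CCAAT matches, 113, 45 and 24 bases before the start, and 1 cell cycle homology match, 235 bases before it. Promoter windows, 250 bases before to 50 after a start, were matched for 42 of the 46 genes and numbered 58. CCAAT lay in 43.1% of these windows and in 34.6% of all 35116 windows, and the cell cycle homology letters in 13.8% and 16.4%. In the stretches shown no match overlaps another. A match is a description of letters, not of a bound site.

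The Fanconi core held 8 genes, of which 3 rose, 4 fell and 1 did not pass the test. FANCL, the ubiquitin ligase subunit that modifies the FANCD2 and FANCI pair (chr2:58159243-58241372, minus strand), had 42.1, 54.5 and 51.9 CPM with DMSO and 13.2, 13.1 and 20.4 CPM with NCD. FANCC, an adaptor subunit that joins FANCE and FANCF to the complex (chr9:95099054-95426796, minus strand), had 18.7, 21.4 and 21.8 CPM with DMSO and 7.65, 5.38 and 6.62 CPM with NCD. Both fell without overlap, FANCL by 3.17-fold (log2 fold change -1.67 ± 0.18 SE, adjusted p = 3.05e-05) and FANCC by 3.14-fold (log2 fold change -1.65 ± 0.14 SE, adjusted p = 6.29e-06). FANCE, the subunit that touches FANCD2, had 25.7, 27.2 and 26.1 CPM with DMSO and 52.4, 52.9 and 45.7 CPM with NCD (log2 fold change 0.93 ± 0.081 SE, adjusted p = 8.58e-06), so that every NCD library exceeded every DMSO library. FANCA, a scaffold subunit, had 57.5, 68.9 and 62.4 CPM with DMSO and 38.2, 41.7 and 42.05 CPM with NCD and fell (log2 fold change -0.63 ± 0.085 SE, adjusted p = 0.000146).

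UBE2T, the ubiquitin-conjugating enzyme that works with FANCL, rose by 0.53 on the log2 scale, and FANCG, another scaffold subunit, by 0.39. FANCM, the translocase that anchors the complex on DNA, fell by 0.83 on the log2 scale (adjusted p = 0.0345), with overlap between the groups. That call was lost under library totals (-0.63, adjusted p = 0.11) and ribosomal protein gene scaling (-0.84, adjusted p = 0.112), and also when DMSO replicate 2 (-0.60, adjusted p = 0.124), DMSO replicate 3 (-0.87, adjusted p = 0.0706), NCD replicate 1 (-0.61, adjusted p = 0.084) or NCD replicate 2 (-0.74, adjusted p = 0.093) was left out. FANCF, an adaptor, was at 0.11 (adjusted p = 0.369).

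Of the pair that the core modifies, FANCI fell and FANCD2 did not pass the test. FANCI (chr15:89243949-89317261, plus strand) was among the highest of the 46 genes per length, at 34.6 CPM per kb of transcript with DMSO, and had 152, 173 and 164 CPM with DMSO and 61.1, 56.2 and 76.8 CPM with NCD. It fell 2.52-fold without overlap (log2 fold change -1.33 ± 0.11 SE, adjusted p = 6.9e-06). FANCD2 had 46.8, 61.3 and 54.4 CPM with DMSO and 54.05, 54.4 and 67.05 CPM with NCD, with overlapping groups and a log2 fold change of 0.11 ± 0.12 (SE, adjusted p = 0.426). Per length FANCI was above FANCD2 in the DMSO mean (34.6 against 10.4 CPM per kb) and close to it in the NCD mean (13.7 against 11.2 CPM per kb).

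The E2F letters (TTTCCCGC, TTTCGCGC, TTTGCCGC or TTTGGCGC on either strand) name the binding site of the transcription factors that switch on S phase genes. They were in 5 of the 58 windows (8.62%), against 3.31% of all windows, and these belong to EXO1, FANCD2, XRCC2, FANCC and FANCA. The 6 matches are shown with 11 bases on either side, since the genes that carry them moved in both directions, and capitals mark the match. On GRCh38.p14 they lie at chr1:241848197-241848226 (EXO1, plus strand), chr3:10026424-10026453 (FANCD2, plus strand), chr7:152676102-152676131 (XRCC2, minus strand), chr9:95317863-95317892 and chr9:95317737-95317766 (FANCC, minus strand) and chr16:89816801-89816830 (FANCA, minus strand).
EXO1: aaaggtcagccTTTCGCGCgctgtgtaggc
FANCD2: cgtcgggcctgGCGGGAAAgtcgaaaacta
XRCC2: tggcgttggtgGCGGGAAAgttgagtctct
FANCC, farther match: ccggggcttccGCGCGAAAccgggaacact
FANCC, nearer match: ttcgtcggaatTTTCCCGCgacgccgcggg
FANCA: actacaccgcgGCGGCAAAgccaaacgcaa
The 2 FANCC matches lay 165 and 39 bases before the RefSeq start and that of FANCA 165 bases before it. That of FANCD2 spanned the start, and those of EXO1 and XRCC2 began at bases 5 and 22 of the transcript. Log2 fold changes were 0.33 for EXO1, 0.11 for FANCD2, -0.36 for XRCC2, -1.65 for FANCC and -0.63 for FANCA, so EXO1 rose, FANCC and FANCA fell, and FANCD2 and XRCC2 did not pass the test.

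Nucleases that cut on either side of a crosslink were measured next. ERCC1, the DNA-binding subunit of the ERCC1 and ERCC4 nuclease, had 87.4, 79.7 and 86.8 CPM with DMSO and 43.8, 41.96 and 41.7 CPM with NCD. ERCC4, the subunit that holds the cutting site, had 12.96, 16.9 and 12.8 CPM with DMSO and 23.99, 21.4 and 28.8 CPM with NCD. The partners changed in opposite directions without overlap, ERCC1 at -0.99 ± 0.066 (SE, adjusted p = 1.6e-06) and ERCC4 at 0.80 ± 0.14 (SE, adjusted p = 0.000979). ERCC1 lay just under the fold threshold and passed it with DESeq2 (-1.01), among other settings. FAN1, a nuclease recruited by the modified FANCD2, rose by 0.44 on the log2 scale, a call lost with ribosomal protein gene scaling (0.43, adjusted p = 0.0994), and the scaffold SLX4 was at 0.22 (adjusted p = 0.0936).

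Of the 5 checkpoint genes 4 fell at any fold (80.0%, against 34.1% of all tested genes) and 0 rose, and ATR had the deepest fall of the 46 genes. The call of ATRIP, 1 of the 4, was lost in several settings. ATR, which responds to single-stranded DNA at stalled forks (chr3:142449235-142578826, minus strand), had 29.2, 44.6 and 36.5 CPM with DMSO and 5.68, 6.57 and 10.3 CPM with NCD. ATM, which responds to double-strand breaks (chr11:108222484-108369102, plus strand), had 69.7, 125 and 104 CPM with DMSO and 20.8, 22.2 and 44.4 CPM with NCD. Neither gene's groups overlapped, although NCD replicate 3 was the highest NCD library for both and DMSO replicate 2 the highest DMSO library. ATR fell 4.90-fold (log2 fold change -2.29 ± 0.23 SE, adjusted p = 1.96e-05) and ATM 3.41-fold (log2 fold change -1.77 ± 0.30 SE, adjusted p = 0.000681), and with the 2 libraries that stood apart left out they were at -2.44 and -2.03.

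CHEK2, the effector kinase below ATM, had 14.5, 13.9 and 12.9 CPM with DMSO and 9.04, 8.23 and 10.1 CPM with NCD and fell (log2 fold change -0.59 ± 0.11 SE, adjusted p = 0.00128). ATRIP, the partner that brings ATR to DNA, had 13.1, 12.1 and 11.6 CPM with DMSO and 9.96, 10.6 and 9.51 CPM with NCD and fell slightly (log2 fold change -0.29 ± 0.10 SE, adjusted p = 0.0319), a call that depended on the settings. Under library totals ATRIP was at -0.089 (adjusted p = 0.429), and the call was also lost with DESeq2 (adjusted p = 0.0656), ribosomal protein gene scaling (adjusted p = 0.135), no filter on low counts (adjusted p = 0.0831) and the replicate block (adjusted p = 0.0516), and without DMSO replicate 1 (-0.26), DMSO replicate 2 (-0.31), NCD replicate 1 (-0.31) or NCD replicate 3 (-0.27). CHEK2 and ATRIP were lower in each NCD library than in any DMSO library. CHEK1, the effector below ATR, was at -0.14 and did not pass the test (adjusted p = 0.0785), with a 95% interval of -0.28 to 0.01. It passed without NCD replicate 3 (-0.18, adjusted p = 0.0378).

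**Figure D2:**
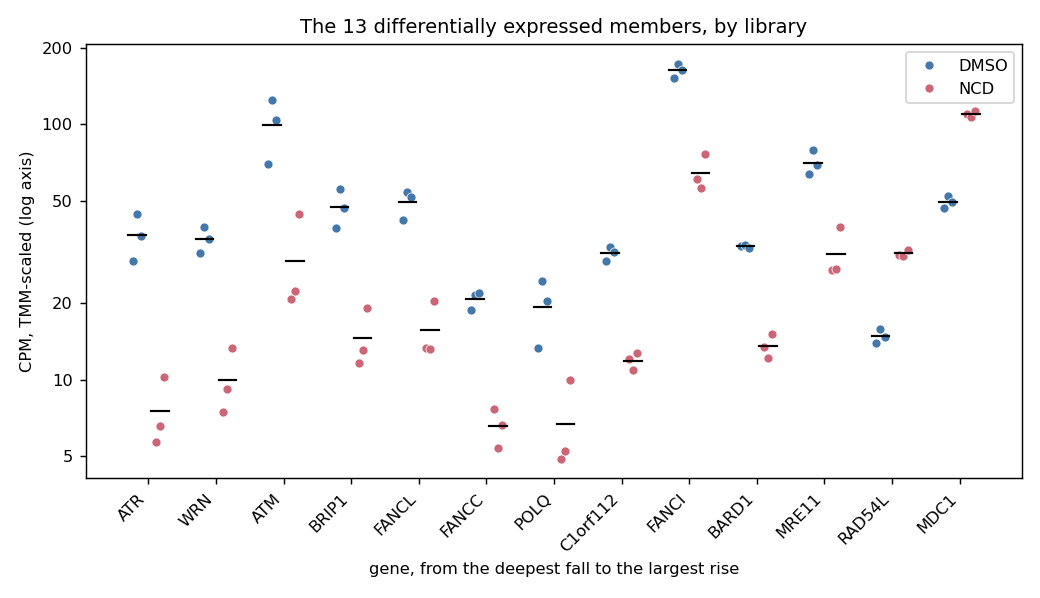
CPM on TMM-scaled library sizes (log axis) of the 13 differentially expressed genes in each library, with the group mean as a bar. The groups do not overlap for any of them, and POLQ in NCD replicate 3 (9.93 CPM) comes nearest in ratio to its lowest DMSO library (13.3 CPM).

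End resection, which exposes the single strand, held 4 genes that fell and 1 that rose. MRE11, the nuclease of the complex with RAD50 and NBN (chr11:94415578-94493908, minus strand), had 63.8, 79.2 and 69.3 CPM with DMSO and 26.8, 27.2 and 39.5 CPM with NCD. It fell 2.27-fold without overlap (log2 fold change -1.18 ± 0.15 SE, adjusted p = 0.000115). RBBP8, also called CtIP, which starts resection with MRE11, had 77.9, 94.8 and 89.2 CPM with DMSO and 51.5, 54.2 and 68.7 CPM with NCD (log2 fold change -0.59 ± 0.12 SE, adjusted p = 0.0018). NBN, the subunit that calls ATM to the break, had 89.2, 110 and 95 CPM with DMSO and 54.01, 52.7 and 76.04 CPM with NCD (log2 fold change -0.69 ± 0.14 SE, adjusted p = 0.00221). For RBBP8 and NBN the NCD libraries lay below the DMSO libraries, with NCD replicate 3 nearest to them. RAD50, which tethers the ends, was at -0.96 (adjusted p = 0.0152) with overlapping groups, and was at -0.64 (adjusted p = 0.053) without DMSO replicate 2 and at -1.29 without NCD replicate 3. The RAD50 call was also lost under library totals (-0.77, adjusted p = 0.0529) and ribosomal protein gene scaling (adjusted p = 0.0647), which would leave 3 genes called as lower. EXO1, which extends resection, rose by 0.33 on the log2 scale, a call lost with ribosomal protein gene scaling (0.31, adjusted p = 0.197).

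WRN, a RecQ helicase and exonuclease that restarts forks, had 31.3, 39.5 and 35.7 CPM with DMSO and 7.43, 9.21 and 13.3 CPM with NCD. It fell 3.56-fold without overlap (log2 fold change -1.83 ± 0.19 SE, adjusted p = 2.78e-05). BLM, the RecQ helicase that dissolves joined chromatids, had 34.05, 42.2 and 38.9 CPM with DMSO and 23.4, 24.01 and 27.4 CPM with NCD and also fell without overlap (log2 fold change -0.62 ± 0.10 SE, adjusted p = 0.000523).

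C1orf112 (FIRRM) and FIGNL1 form a complex that acts late in recombination, and both fell. C1orf112 (chr1:169662007-169854080, plus strand) had 29.2, 33.2 and 31.6 CPM with DMSO and 12.02, 10.9 and 12.7 CPM with NCD, a 2.64-fold difference (log2 fold change -1.40 ± 0.095 SE, adjusted p = 1.78e-06). FIGNL1 had 34.9, 39.1 and 35.1 CPM with DMSO and 21.6, 23.9 and 27.6 CPM with NCD (log2 fold change -0.58 ± 0.10 SE, adjusted p = 0.00086). The groups did not overlap for either. POLQ, the polymerase of the end joining pathway that stands in when recombination is missing (chr3:121431427-121546641, minus strand), had 13.3, 24.4 and 20.3 CPM with DMSO and 4.89, 5.23 and 9.93 CPM with NCD. Its fall was 2.89-fold (log2 fold change -1.53 ± 0.30 SE, adjusted p = 0.00141), with NCD replicate 3 and DMSO replicate 2 again the highest of their groups.

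Of the 4 genes of the chromatin signal around a break, 3 rose and 1 did not pass the test. MDC1, the scaffold that reads phosphorylated histones beside a break (chr6:30699807-30717889, minus strand), had 47.2, 52.5 and 49.5 CPM with DMSO and 110.1, 107 and 113 CPM with NCD. The libraries of each group were tight, and MDC1 rose 2.21-fold (log2 fold change 1.15 ± 0.064 SE, adjusted p = 5.51e-07). RNF8, the ubiquitin ligase that MDC1 recruits, had 50.02, 49.9 and 46.5 CPM with DMSO and 86.2, 87.5 and 82.2 CPM with NCD (log2 fold change 0.81 ± 0.064 SE, adjusted p = 4.77e-06). RNF168, the ligase that spreads the mark, had 65.7, 82.4 and 70.2 CPM with DMSO and 102, 110.1 and 124 CPM with NCD (log2 fold change 0.62 ± 0.10 SE, adjusted p = 0.000513). Neither overlapped between the groups. TP53BP1, which reads the RNF168 mark and restrains resection, was at -0.24 and did not pass the test (adjusted p = 0.0622), although it did without DMSO replicate 1 (-0.34, adjusted p = 0.0177) or NCD replicate 3 (-0.35, adjusted p = 0.00785). With all 6 libraries TP53BP1 passed under DESeq2 (adjusted p = 0.039), RLE scaling (adjusted p = 0.0414), no filter on low counts (adjusted p = 0.0297) and a stricter filter that asked each library for 10 counts (adjusted p = 0.0424), and under library totals it was at -0.043 (adjusted p = 0.752).

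Since partners in some complexes moved in opposite directions, ratios of expected counts were taken within each library, which do not depend on scaling. The 10 pairs were chosen after the values were seen and were not tested. How often the ratios of other gene pairs separate the groups was not measured. Of all tested genes alone, 37.2% lay above and 35.3% below the DMSO libraries without overlap, so separation is common in these data. The ratio of BRCA1 to BARD1 was 0.872, 1.37 and 1.08 with DMSO and 3.06, 3.68 and 4.53 with NCD, and that of FANCD2 to FANCI was 0.308, 0.354 and 0.332 with DMSO and 0.885, 0.969 and 0.873 with NCD. ERCC1 to ERCC4 stood at 6.75, 4.72 and 6.77 with DMSO and 1.83, 1.97 and 1.45 with NCD. Each of these 3 ratios separated the groups without overlap, including NCD replicate 3.

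For the Fanconi ubiquitin enzymes, UBE2T to FANCL, the ratios were 2.05, 1.27 and 1.47 with DMSO and 8.66, 8.997 and 4.98 with NCD. ATR to ATRIP gave 2.23, 3.71 and 3.15 with DMSO and 0.571, 0.62 and 1.08 with NCD. C1orf112 to FIGNL1 gave 0.836, 0.849 and 0.902 with DMSO and 0.555, 0.454 and 0.462 with NCD, lower with NCD although both genes of this pair fell. By contrast MRE11 to RAD50 was 3.09, 1.85 and 2.55 with DMSO and 2.28, 2.05 and 1.84 with NCD, and BRCA2 to PALB2 and RAD51D to XRCC2 also overlapped between the groups. RAD51C to XRCC3 was 0.568, 0.523 and 0.543 with DMSO and 0.594, 0.586 and 0.618 with NCD, a narrow range in which the groups still did not overlap.

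**Figure D3:**
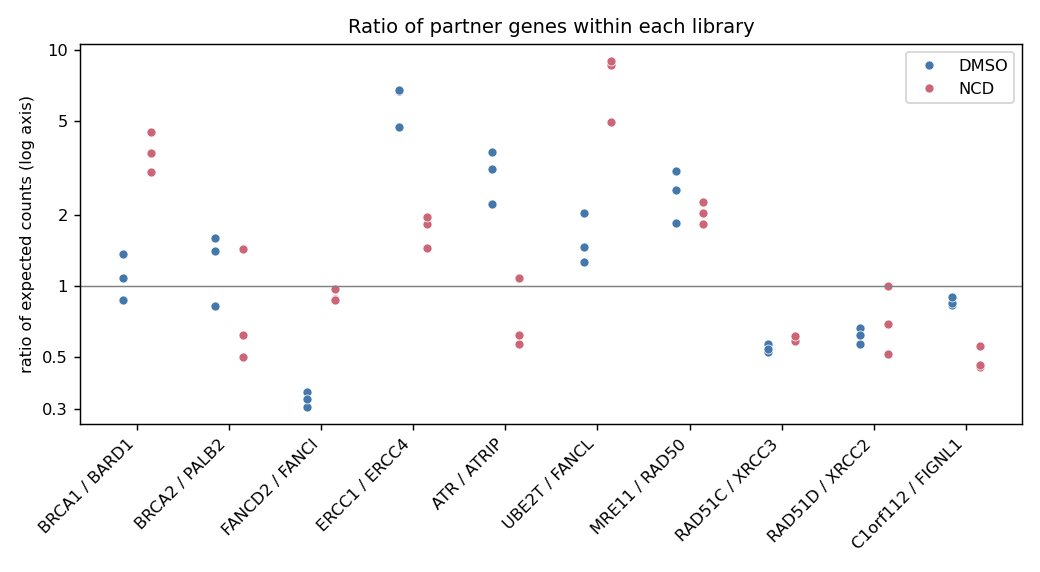
Ratio of expected counts of 10 partner pairs within each library (log axis; 1 marks equal counts). The groups separate for BRCA1 to BARD1, FANCD2 to FANCI, ERCC1 to ERCC4, ATR to ATRIP, UBE2T to FANCL, C1orf112 to FIGNL1 and, narrowly, RAD51C to XRCC3, and overlap for the other 3 pairs. The pairs were picked after the values were seen, and the share among other gene pairs was not measured.

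The genes that fell were long. Over the 46 genes the Spearman correlation of log2 fold change with gene span, the distance from the first to the last annotated base, was -0.73, and over 14692 tested genes with a span it was -0.50 (genes share libraries and are not independent, and no p is given). Of the 25 genes with a span of at least 60 kb, 20 fell at any fold (80.0%) and 0 rose (0.0%). Of these 25 genes 11 were differentially expressed and lower (44.0%, against 47.7% of all tested genes of at least 60 kb). Of the 21 shorter ones 2 fell (9.52%) and 14 rose (66.7%) at any fold. The 2 that fell in the shorter set were ATRIP and CHEK2. Over all tested genes 71.1% of those of at least 60 kb fell and 9.48% rose, and 19.5% of the shorter ones fell and 46.5% rose. The 60 kb line was drawn after the values were seen, and the part of gene length in the changes was not tested.

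Against genes of like span, the 46 did not lie to 1 side: 11 of the 25 long genes and 14 of the 21 shorter ones were above the median of their span decile, and their median difference from it was 0.11 on the log2 scale. Farthest above were RBBP8 (228 kb), at -0.59 in a decile with a median of -2.09, and BRCA1 (126 kb), at 0.47 against -0.93. Farthest below were ATR (129.6 kb), at -2.29 against -0.93, and FANCL (82.1 kb), at -1.67 against -0.35. BRIP1, FANCC and C1orf112 were differentially expressed and lower but sat above the median of the longest decile, -2.09. That decile runs from 153 to 2173 kb, and its 4 members, RBBP8 among them, span 182 to 328 kb. Its median thus covers much longer genes than these 4. The genes named in this comparison were picked after their values were seen. Spans, here and at the 60 kb line, run over all annotated transcripts of a gene. The transcript used in these cells may cover less, and its span was not measured.

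**Figure D4:**
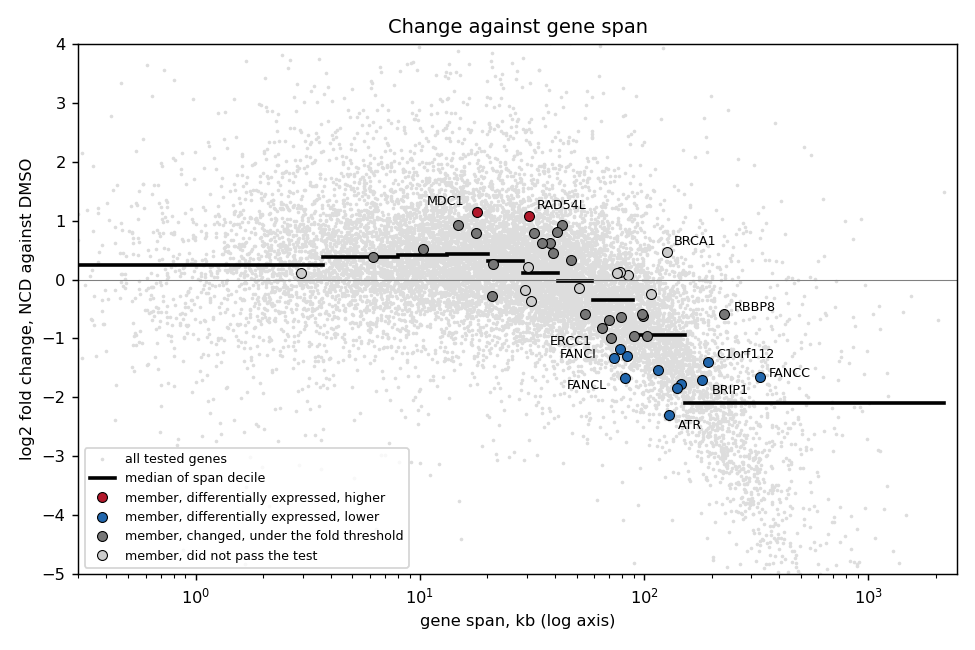
Log2 fold change of NCD against DMSO by gene span in kb (log axis) for all tested genes (grey, some beyond the plotted range of -5 to 4), the medians of their span deciles (black bars) and the 46 genes (circles, coloured by call). The decile medians fall from 0.43 at 13.2 to 20.1 kb to -2.09 above 153 kb, and the 11 differentially expressed and lower genes span at least 73.3 kb.

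How much NCD replicate 3 and DMSO replicate 2 departed from their groups varied among the 46 genes along transcript properties. NCD replicate 3 was above the mean of the other NCD libraries by 1.60 for BRCA2, 1.03 for ATM, 0.91 for POLQ and 0.91 for FANCM on the log2(CPM + 0.5) scale, and below it by most for XRCC3 (-0.24), whose transcript has 62.5% GC against 36.3% for BRCA2. Over the 46 genes this departure had a Spearman correlation of -0.71 with transcript GC content, 0.48 with transcript length and 0.83 with the departure of DMSO replicate 2. These are descriptions over genes that share libraries. With both libraries left out, the same 13 genes were differentially expressed, ERCC1, FANCE and RAD54B joined them, and 40 of the 46 changed at any fold.

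**Figure D5:**
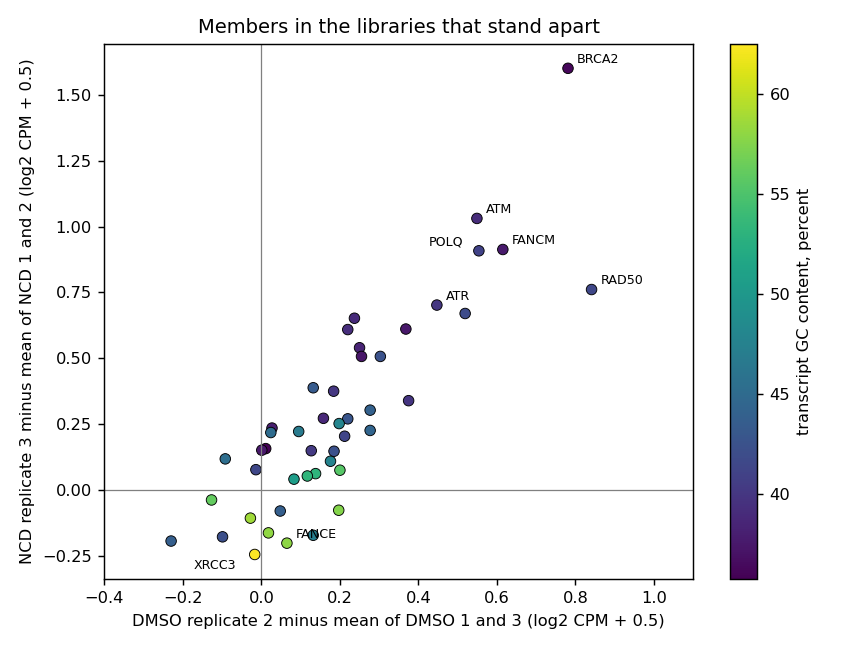
Departure of NCD replicate 3 from the mean of NCD replicates 1 and 2 against that of DMSO replicate 2 from the mean of DMSO replicates 1 and 3, both on the log2(CPM + 0.5) scale, for each of the 46 genes, coloured by the GC content of its transcript. BRCA2 (0.78 and 1.60) lies farthest out, and genes of low GC content lie to the upper right.

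Other genes of the same pathways were counted in the same fit. Of 67 further recombination, Fanconi and checkpoint genes, 16 passed both thresholds (23.9%, where the share over all tested genes was 31.0%), 8 higher (11.9%, against 13.5%) and 8 lower (11.9%, against 17.5%), with a median log2 fold change of 0.20. SPIDR, a scaffold protein of recombination, had 25.01, 27.8 and 25.2 CPM with DMSO and 0.699, 0.983 and 0.979 CPM with NCD (log2 fold change -4.87 ± 0.14 SE, adjusted p = 2.3e-08). RAD51B, which acts with RAD51C, had 11.9, 9.62 and 11.6 CPM with DMSO and 0.393, 0.31 and 0.466 CPM with NCD (log2 fold change -4.79 ± 0.20 SE, adjusted p = 1e-07). BABAM2, a subunit of a BRCA1 complex, had 38.1, 35.8 and 36.4 CPM with DMSO and 2.49, 2.28 and 2.10 CPM with NCD (log2 fold change -4.0 ± 0.10 SE, adjusted p = 1.58e-08). These were the 3 deepest falls on that list, all in genes of at least 449 kb. DMC1, which acts in meiosis, rose most among the differentially expressed genes but stayed near 1 CPM, with 0.362, 0.396 and 0.11 CPM with DMSO and 1.09, 0.828 and 1.07 CPM with NCD (log2 fold change 1.78 ± 0.42 SE, adjusted p = 0.00449). FAAP24, a partner of FANCM, had 4.52, 3.85 and 4.06 CPM with DMSO and 14.2, 12.9 and 12.3 CPM with NCD (log2 fold change 1.67 ± 0.12 SE, adjusted p = 2.81e-06). EME1, a subunit of a nuclease that cuts joined DNA molecules, had 14.8, 16.7 and 14.8 CPM with DMSO and 44.9, 45.4 and 44.9 CPM with NCD (log2 fold change 1.55 ± 0.079 SE, adjusted p = 3.19e-07). The groups did not overlap for any of these 6 genes.

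Of 11 tested end joining genes 3 fell and 0 rose past the fold threshold (27.3% called, median -0.55). Of 7 mismatch repair genes 3 fell and 1 rose (57.1%, median -0.36), and of 19 nucleotide excision genes 0 fell and 1 rose (5.26%, median 0.03). These shares stand beside 31.0% of all tested genes, 13.5% higher and 17.5% lower. The cell cycle lists held smaller shares of differentially expressed genes than all tested genes did. At any fold, though, 29 of 55 G2/M genes fell (52.7%, against 34.1% of all tested genes) and 5 rose (9.09%, against 35.3%). Of 35 S phase genes 14 rose and 14 fell at any fold (40.0% each). The summed level of 55 G2/M genes was 10840 to 11530 CPM with DMSO and 9018 to 9716 CPM with NCD, and 6 of them were differentially expressed, all lower (10.9%, median -0.27). For 35 S phase genes the sums were 5085 to 5291 CPM and 4910 to 5077 CPM, with 3 differentially expressed and lower (8.57%, median -0.01). The summed level of the 46 repair genes was 1886 to 2218 CPM with DMSO and 1665 to 1935 CPM with NCD. The part of the cell cycle in the repair gene changes was not tested.

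Of 18 cell cycle regulators 3 were differentially expressed and higher (16.7%, against 13.5% of all tested genes) and 2 lower (11.1%, against 17.5%), and at any fold 7 rose and 8 fell, with a median log2 fold change of -0.07. The 2 lower ones were RBL2 (-1.41) and RBL1 (-1.22), relatives of the retinoblastoma protein that bind E2F factors, and LIN37 (1.45), E2F2 (1.16) and CDKN1A were the 3 higher. Among the others E2F3 (-0.88), TFDP2 (-0.86), LIN52 (-0.76), TFDP1 (-0.52) and E2F4 (-0.34) fell at any fold and E2F6 (0.88) rose. CDKN1A, the cyclin-dependent kinase inhibitor p21 that p53 induces, had 64.1, 58.7 and 60.9 CPM with DMSO and 132, 134 and 115 CPM with NCD (log2 fold change 1.05 ± 0.076 SE, adjusted p = 2.55e-06). E2F1, an activator of S phase genes, had 59.8, 59.4 and 61.2 CPM with DMSO and 79.1, 77.8 and 67.5 CPM with NCD (log2 fold change 0.32 ± 0.075 SE). The repressor E2F7 had 90.3, 110.1 and 96.97 CPM with DMSO and 82.1, 80.3 and 91.8 CPM with NCD (log2 fold change -0.23 ± 0.087 SE). For CDKN1A and E2F1 the groups did not overlap, and for E2F7 they did. E2F8, a repressor like E2F7 that was counted with the S phase genes, had 33.5, 33.9 and 29.98 CPM with DMSO and 48.8, 50.2 and 52.03 CPM with NCD (log2 fold change 0.63 ± 0.076 SE). MYBL2, which acts from S phase to mitosis, had 47.5, 45.9 and 44.1 CPM with DMSO and 60.4, 60.3 and 53.7 CPM with NCD (log2 fold change 0.34 ± 0.074 SE), and FOXM1, which drives mitotic genes, had 176, 174 and 167 CPM with DMSO and 228, 227 and 213 CPM with NCD (log2 fold change 0.37 ± 0.056 SE). These 6 passed the test, but they do not stand for the regulators as a whole.

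Per length, the 46 genes spanned a wide range with DMSO, from 1.45 CPM per kb of transcript for SLX4 to 85.2 for UBE2T, with FANCI (34.6), RAD51AP1 (32.6) and FANCL (29.4) next. With NCD, UBE2T (123) was again highest and RAD51AP1 (39.3) followed, while POLQ (0.762) and ATR (0.909) were lowest. These levels take 1 annotated transcript per gene as the length.

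In 18 of the 46 genes, 6 of the 13 differentially expressed ones among them, another annotated gene with at least 100 counts in a library overlaps the span. It lies on the opposite strand for RAD54L (LRRC41), FANCL (VRK2), FANCI (POLG), ATM (NPAT), MRE11 (ANKRD49) and C1orf112 (SCYL3 and METTL18), and on the same strand for CHEK1 (STT3A), ATRIP (TREX1) and RAD50, among others. Whether the counting used strand is not given in the sources used here, so reads of overlapping partners could have been split between them.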

How the data were processed

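The authors deposited expected counts per Ensembl gene for each library, made by RSEM from reads aligned to GRCh38 (hg38) with HISAT2, per the submitters' processing notes; strand use and the annotation release are not given in the sources used here. For NCD replicates 2 and 3 the description gives the cell line another number than the cell line field does, and the field was used. Each file also held 25 stray lines of annotation text, which carry no count and were skipped. Symbols were found for 62666 identifiers, and spans, transcripts and overlaps came from GENCODE 29 (58228 identifiers). Promoter windows came from RefSeq on GRCh38.p14.

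Expected counts were rounded and fitted with edgeR 4.0.16 in R 4.3.3 (filterByExpr, TMM, glmQLFit, glmQLFTest, Benjamini-Hochberg over 15295 genes). TMM factors were 0.911 to 0.949 with DMSO and 1.059 to 1.092 with NCD, and CPM uses the scaled library sizes. Standard errors are the absolute log2 fold change over the square root of F. On simulated counts for this comparison 200 of 200 changed genes among 14629 were recovered with 0 false calls. In the measured libraries 4736 of 15295 genes (31.0%) were differentially expressed, and recovery at that share was not tested. Recovery of genes near the fold threshold, or with libraries that stood apart from their groups, was not tested either. Replicates differed by more than sampling noise in each pair (chi-square per degree of freedom of at least 2.06). Depth limits genes with few counts, and 3 libraries in each group limit the precision.

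The genes and lists were chosen with earlier results of these data known. Values per library are given for each differentially expressed gene and for up to 2 others of each role with the smallest p; of the other lists, for the 3 largest rises and falls among differentially expressed recombination, Fanconi and checkpoint genes and for 6 cell cycle regulators. Alternatives were DESeq2 1.42.0, limma-voom 3.58.1, scaling by library totals, RLE or ribosomal protein genes, no filter, at least 10 counts in every library, a prior count of 2, no fold threshold, a block by replicate number, and fits that left out 1 library each; leaving out DMSO 2 and NCD 3 together was added after the data were seen. Tables and figures were made in Python 3.11.15 (pandas 2.3.3, numpy 2.4.6, scipy 1.17.1, matplotlib 3.10.9).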

Additional observations from a re-analysis of the deposited data

How the results depend on the processing

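Without the fold threshold 36 of the 46 genes were called instead of 13. Scaling by library totals called 5 higher instead of 2 and put the median log2 fold change at -0.066 instead of -0.26. Ribosomal protein gene scaling gave 30 genes changed at any fold, the lowest count of the alternatives run, without ATRIP, EXO1, FAN1, FANCM, RAD50 and RAD51AP1, and a median of -0.28. Leaving out 1 library gave 13 to 16 differentially expressed genes of the 46 (11 to 14 lower, 2 higher), 34 to 39 changed at any fold, medians of -0.46 (without NCD replicate 3) to -0.22, and 4653 to 5049 differentially expressed genes in all. ERCC1, FANCM, RAD50 and RAD54B passed the fold threshold in some of these fits. The 13 genes kept their calls in each alternative fit run except MRE11 under library totals (-0.98). BRCA2 changed sign with limma-voom (-0.077), with the replicate block (-0.042), without DMSO replicate 1 (-0.19), without NCD replicate 3 (-0.70) and without DMSO 2 and NCD 3 (-0.40), and reached 0.38 without NCD replicate 1. RAD51D (0.021) and CHEK1 (0.061) did so under library totals, RAD52 without DMSO replicate 1 (-0.006, against up to 0.19 without another library), and FANCD2 without DMSO replicate 1 (-0.011) or NCD replicate 3 (-0.015, against up to 0.20); none of these but BRCA2 without NCD replicate 3 (adjusted p = 0.047) passed the test, and the causes were not tested. Deviations of same-numbered libraries had correlations of 0.31, -0.27 and 0.03, which did not agree in sign. DMSO replicate 2 and NCD replicate 3, which stood apart, carry different numbers and could hide a pairing, so pairing was not excluded. With the replicate number as a block 13 of the 46 genes and 4723 of all genes were differentially expressed. Genes with overlapping groups, such as BRCA2, BRCA1, FANCM and RAD50, are the least certain at 3 libraries a group, and CHEK1 and other genes with an overlapping neighbour depend on how reads were divided.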
